A study of Mus musculus with 6 samples.

Results

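The genes described here are the 4 inhibitor of DNA binding (ID) genes, Id1, Id2, Id3 and Id4, and the 3 E protein genes, Tcf3, Tcf4 and Tcf12. They were picked by symbol, 7 of 23361 gene symbols in the table, and the family was proposed with the comparison of SMC-TAZ4SA with SMC-Ctrl in view. Their differences between the groups are therefore given as a description, with standard errors and without a test. RNA was sequenced from cultured mouse small-cell lung cancer (SCLC) cells named SMC, the SCLC metastasizing cell, which the study sorted for high NCAM and little or no CD44 from lung tumours of Rb1 L/L, Trp53 L/L mice of mixed C57Bl/6, Balb-c and S129 background. Tumours in these mice follow adenoviral Cre given into the airway, so both groups carry the deletions of Rb1 and Trp53. SMC-TAZ4SA (3 libraries) received a virus with TAZ4SA, an activated form of TAZ, which drives transcription together with DNA-binding partners, and SMC-Ctrl (3 libraries) received the control virus, with puromycin selection of infected cells. The titles, the design text and the column names give these groups, whereas the data statement of the study lists the series as SMC and non-SMC (tumour cells with little NCAM and much CD44), and this difference is not resolved here. Whether replicates were separate cultures is not stated, so errors and p-values cover no more than library-to-library spread, possibly technical.

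ID and E proteins belong to the helix-loop-helix family of transcription regulators. E proteins bind the E box, CANNTG, through a basic region, either as pairs of E proteins or together with a tissue-restricted class II partner. ID proteins have the helix-loop-helix but no basic region, so an E protein paired with an ID cannot bind DNA. ID genes are well-known targets of bone morphogenetic protein (BMP) signalling through SMAD factors, and ID levels are known to be high in many dividing and undifferentiated cells.

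All 4 ID genes were lower in SMC-TAZ4SA than in SMC-Ctrl, by 3.65-fold for Id3 and by 96.5-fold for Id2, while Tcf3 was 1.69-fold higher and Tcf4 and Tcf12 differed little. Values are FPKM, fragment counts scaled to transcript length and to the mapped fragments of the library, as the authors deposited them. Of the 7 genes limma called 4 lower and 1 higher, and of all 12141 tested genes it called 39.7% lower and 40.7% higher, 80.3% in all. Since the family was chosen with this comparison in view, nothing is read from that count. FPKM measures bulk RNA, in which fewer cells that express a gene cannot be told apart from less RNA per cell.

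Id1 encodes an ID protein of vessels and stem cells that responds to BMP within hours in many cell types. It stood at 9.25, 9.29 and 8.46 FPKM in SMC-TAZ4SA replicates 1 to 3, against 346, 379 and 382 FPKM in SMC-Ctrl replicates 1 to 3. The groups were far apart and tight within, and the mean in SMC-TAZ4SA was 41.0-fold lower, at 2.44% of the SMC-Ctrl mean. Folds are ratios of mean FPKM, whereas differences here and below are between means of log2(FPKM + 1), and that of Id1 was −5.21 (SE 0.07). Among the 12141 tested genes Id1 held rank 6631 by mean level in SMC-TAZ4SA and rank 50 in SMC-Ctrl.

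Id2 is the ID gene known for its part in innate lymphoid and neural precursor cells, and its protein can also bind the retinoblastoma protein. It was at 2.62, 1.29 and 1.86 FPKM in the SMC-TAZ4SA libraries, against 183, 176 and 198 FPKM in the SMC-Ctrl libraries. This was the widest gap of the family, a difference of −6.02 (SE 0.15) and the value at rank 10 of 12141 from the lowest. The 3 SMC-TAZ4SA libraries were more uneven for Id2 than for any other member, with a coefficient of variation of 34.6%, against 5.83% in SMC-Ctrl. The mean was 1.92 ± 0.665 FPKM in SMC-TAZ4SA and 186 ± 10.8 FPKM in SMC-Ctrl (SD, n = 3 each).

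Id3, whose protein is closely related to ID1 and often expressed with it, was the most abundant member in every library. It reached 427, 387 and 402 FPKM in SMC-TAZ4SA, against 1454, 1529 and 1455 FPKM in SMC-Ctrl. In SMC-Ctrl only a single tested gene had a higher mean (rank 2 of 12141), and in SMC-TAZ4SA Id3 still held rank 66. The difference was the smallest of the ID genes, −1.87 (SE 0.10), and 27.4% of the SMC-Ctrl mean was left.

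Id4, the ID gene best known from neural and mammary precursors, was the least abundant of them in SMC-Ctrl. It was at 1.67, 1.64 and 1.51 FPKM in SMC-TAZ4SA, against 33.5, 32.8 and 29.7 FPKM in SMC-Ctrl. The difference of −3.66 (SE 0.07) stood at rank 188 from the lowest, and the mean was 19.9-fold lower. The exons of Id4 overlap those of A330033J07Rik and Gm49291, which run on the opposite strand, and whether the reads were counted by strand is not stated, so the Id4 values may include reads of these RNAs.

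**Figure D1:**
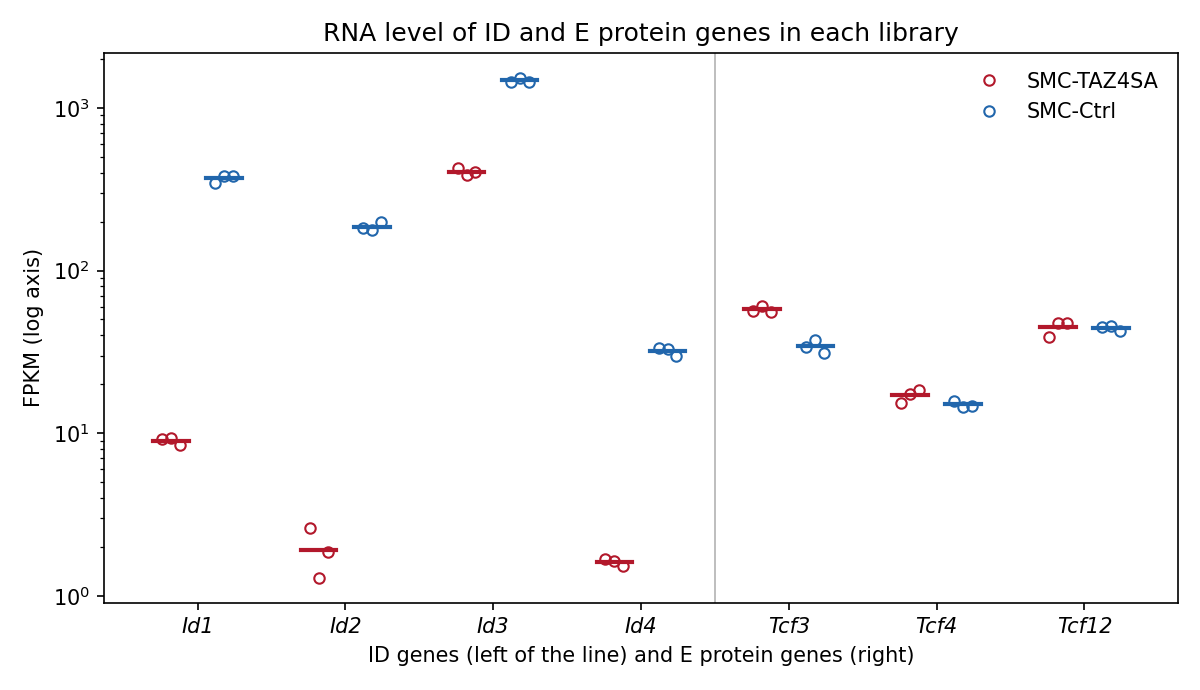
FPKM (log axis) of the 4 ID genes and the 3 E protein genes in the 3 SMC-TAZ4SA and the 3 SMC-Ctrl libraries, with each circle a library and each line the group mean. The ID genes lie well below SMC-Ctrl in SMC-TAZ4SA (Id2 at 1.29 to 2.62 against 176 to 198 FPKM), whereas the circles of Tcf4 and Tcf12 overlap between the groups.

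Tcf3 encodes E12 and E47, splice forms that differ in the basic helix-loop-helix exon and that gene-level FPKM does not separate. It was at 56.3, 60.7 and 56.0 FPKM in SMC-TAZ4SA, against 34.0, 37.3 and 31.2 FPKM in SMC-Ctrl, and the groups did not overlap. The mean of 57.7 ± 2.62 FPKM in SMC-TAZ4SA and 34.2 ± 3.07 FPKM in SMC-Ctrl (SD, n = 3 each) gave a difference of 0.74 (SE 0.08). Many genes moved further, since Tcf3 held rank 2596 from the highest.

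Tcf12, which encodes HEB, an E protein of lymphoid, muscle and neural precursors, stood at 39.1, 47.8 and 47.8 FPKM in SMC-TAZ4SA, against 45.1, 45.9 and 42.7 FPKM in SMC-Ctrl. SMC-TAZ4SA replicate 1 was the lowest library and the other SMC-TAZ4SA libraries the highest, so the groups overlapped. The difference was 0.00 (SE 0.09). Tcf4, which encodes E2-2 and is not the WNT effector of the same older name (Tcf7l2), was at 15.3, 17.5 and 18.5 FPKM in SMC-TAZ4SA, against 15.8, 14.5 and 14.8 FPKM in SMC-Ctrl. These groups overlapped as well, through SMC-TAZ4SA replicate 1, with a difference of 0.17 (SE 0.08). Without that library the groups no longer overlapped, the difference was 0.25 and limma called it. The difference of Tcf4 was −0.03 once library totals were made equal, so its sign depends on the scaling, as does that of Tcf12. The groups were apart for 5 of the 7 members and for 82.4% of all tested genes.

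**Figure D2:**
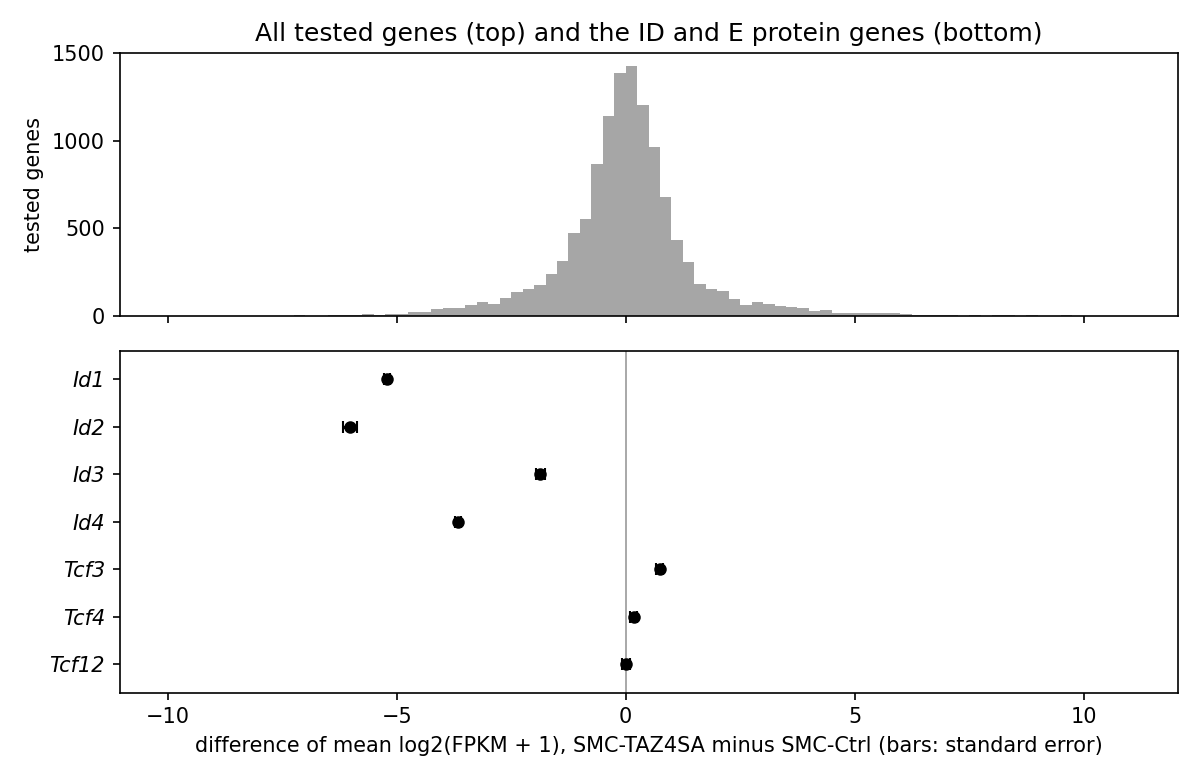
Difference of mean log2(FPKM + 1), SMC-TAZ4SA minus SMC-Ctrl, as a histogram of the 12141 tested genes (top, number of genes per bin) and for each member with its standard error (bottom). Id2 (−6.02) and Id1 (−5.21) lie in the sparse left tail, Id3 (−1.87) at its shoulder and Tcf12 (0.00) at the centre.

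The order of the levels was different in the groups. In SMC-TAZ4SA it ran Id3, Tcf3, Tcf12, Tcf4, Id1, Id2 and Id4, and in SMC-Ctrl it ran Id3, Id1, Id2, Tcf12, Tcf3, Id4 and Tcf4. Neighbours with overlapping ranges were Id2 and Id4 in SMC-TAZ4SA, and Tcf3 (31.2 to 37.3 FPKM) and Id4 (29.7 to 33.5 FPKM) in SMC-Ctrl. All 3 E protein genes thus lay above Id1, Id2 and Id4 in SMC-TAZ4SA, while Id1 and Id2 lay above every E protein gene in SMC-Ctrl.

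Because FPKM is per length, the family may be summed within a library. The ID sum was 441, 399 and 414 FPKM in SMC-TAZ4SA, against 2016, 2118 and 2065 FPKM in SMC-Ctrl, a 4.94-fold lower mean. The E protein sum was 111, 126 and 122 FPKM in SMC-TAZ4SA, against 94.9, 97.7 and 88.7 FPKM in SMC-Ctrl. In the deposited values neither sum overlapped between the groups, the ID sum being lower and the E protein sum higher in SMC-TAZ4SA. The gap in the E protein sum depends on the scaling, since its log2 ratio was 0.35 as deposited and 0.14 with library totals made equal. The ratio of ID to E protein RNA was 3.98, 3.17 and 3.38 in SMC-TAZ4SA, against 21.2, 21.7 and 23.3 in SMC-Ctrl, so ID RNA exceeded E protein RNA in all 6 libraries. Most of what was left was Id3. It made up 97.0% ± 0.120 of the ID sum in SMC-TAZ4SA and 71.6% ± 0.985 in SMC-Ctrl, with Id1 at 2.16% ± 0.150 and 17.9% ± 0.685 (SD, n = 3 each). Without Id3 the ratio was 0.105 ± 0.0147 in SMC-TAZ4SA and 6.27 ± 0.523 in SMC-Ctrl (SD, n = 3 each). Among the E proteins Tcf3 held the largest share in SMC-TAZ4SA, 48.3% ± 2.55 against 36.4% ± 1.59 in SMC-Ctrl, and Tcf12 held 37.4% ± 1.92 in SMC-TAZ4SA against 47.5% ± 0.603 in SMC-Ctrl (SD, n = 3 each). RNA sums say nothing on the amounts of protein.

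**Figure D3:**
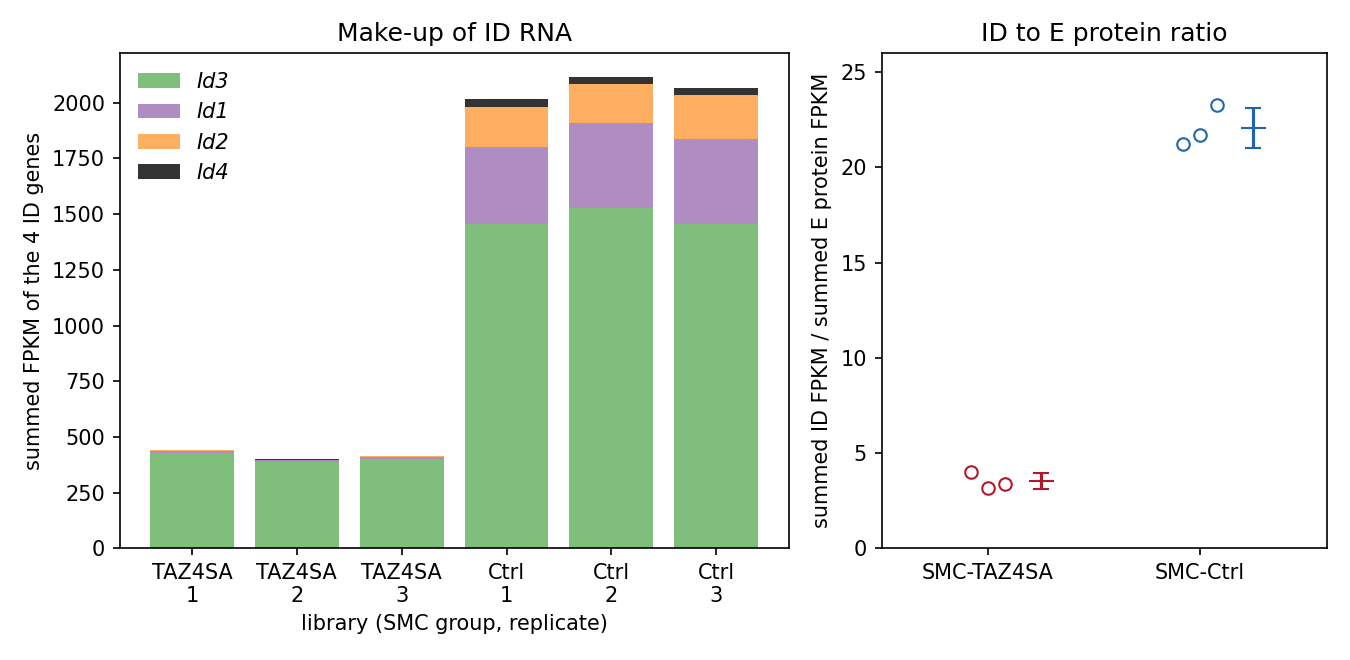
Left, summed FPKM of the 4 ID genes in each library, stacked by gene. Right, ratio of summed ID to summed E protein FPKM, with circles for libraries and bars for the mean ± SD. The ID sum is 399 to 441 FPKM in SMC-TAZ4SA, nearly all Id3, and 2016 to 2118 FPKM in SMC-Ctrl.

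Promoter windows from RefSeq (GRCm38.p6, 250 bases before to 50 after a start site) were matched for Id2, Id3, Id4, Tcf3 and Tcf12. They were searched on both strands for the E box CANNTG, for GGCGCC, an element bound by BMP-activated SMADs, and for GGAATG, the core of the element bound by TEAD factors, the DNA-binding partners of TAZ. CANNTG and GGCGCC read the same on both strands, and none of the matches below overlap each other. Stretches of 3 windows are shown because these ID genes were lower together, and capitals mark the matches (CATTCC is GGAATG on the other strand). Positions count back from the RefSeq start site of the window. By GENCODE the Id4 stretch lies before the gene, whereas the Id3 stretch is inside an exon of Id3 and the Id2 stretch inside the span of Id2 but outside its exons, since the annotated genes begin further upstream.
Id2, chr12:25096254-25096342, minus strand, positions −250 to −162: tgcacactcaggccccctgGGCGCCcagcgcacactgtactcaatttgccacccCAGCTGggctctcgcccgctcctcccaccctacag
Id3, chr4:136143607-136143636, plus strand, positions −215 to −186: tcagcgcttcctCATTCCtcgcatccgagg
Id4, chr13:48260866-48261015, plus strand, positions −250 to −101: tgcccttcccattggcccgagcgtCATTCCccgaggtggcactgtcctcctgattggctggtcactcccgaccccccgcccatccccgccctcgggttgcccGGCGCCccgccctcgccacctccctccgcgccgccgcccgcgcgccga

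GGCGCC was found in the Id2 window at −231 and in the Id4 window at −148, and in neither Id3, Tcf3 nor Tcf12. It is present in 11.9% of all 32851 windows. GGAATG was found for Id3 at −203, for Id4 at −226 and in 1 of the 3 Tcf12 windows, against 14.7% of all windows. An E box was found in the windows of Id2, Tcf3 and Tcf12 and not in those of Id3 and Id4, with 72.3% of all windows holding it. A match is a description of these letters and not of binding.

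The members lie on 7 chromosomes, in GRCm38 coordinates of GENCODE M21: Id1 at chromosome 2, 152736251 to 152737410, Id2 at chromosome 12, 25093799 to 25097140, Id3 at chromosome 4, 136143497 to 136145755, and Id4 at chromosome 13, 48261228 to 48266026. Tcf3 is at chromosome 10, 80409514 to 80433647, Tcf4 at chromosome 18, 69343356 to 69689079, and Tcf12 at chromosome 9, 71842688 to 72111871. The nearest tested gene on each side was looked up after the members' values were seen. All 8 such neighbours of the ID genes were lower in SMC-TAZ4SA by limma, where 39.7% of all tested genes were. E2f2, which encodes a cell cycle factor and starts 28.9 kb from Id3, fell furthest, to 38.4 ± 0.737 FPKM in SMC-TAZ4SA against 899 ± 47.3 FPKM in SMC-Ctrl (SD, n = 3 each). Next to Id1, the survival gene Bcl2l1, 95.5 kb away, fell (−1.92), as did Mcts2, 49.2 kb away (−1.93). The other neighbours had differences of −0.49 to −2.90, and those of Rnf144a and Rnf144b were measured at distances of 1318 and 1139 kb. Of the 6 neighbours of the E protein genes, Cgnl1 (3.44) and Ccdc68 (2.81) rose, Rexo1 (−0.48) and Zfp280d (−0.84) fell, and Uqcr11 (−0.22) and Rnmt (−0.07) did not pass. Rnf144b, at 0.595 ± 0.0754 FPKM in SMC-TAZ4SA, passed the filter through SMC-Ctrl alone and could only be called lower. Cgnl1 (0.539 ± 0.0341 FPKM in SMC-Ctrl) and Ccdc68 (0.646 ± 0.0798 FPKM in SMC-Ctrl) could only be called higher (SD, n = 3 each).

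**Figure D4:**
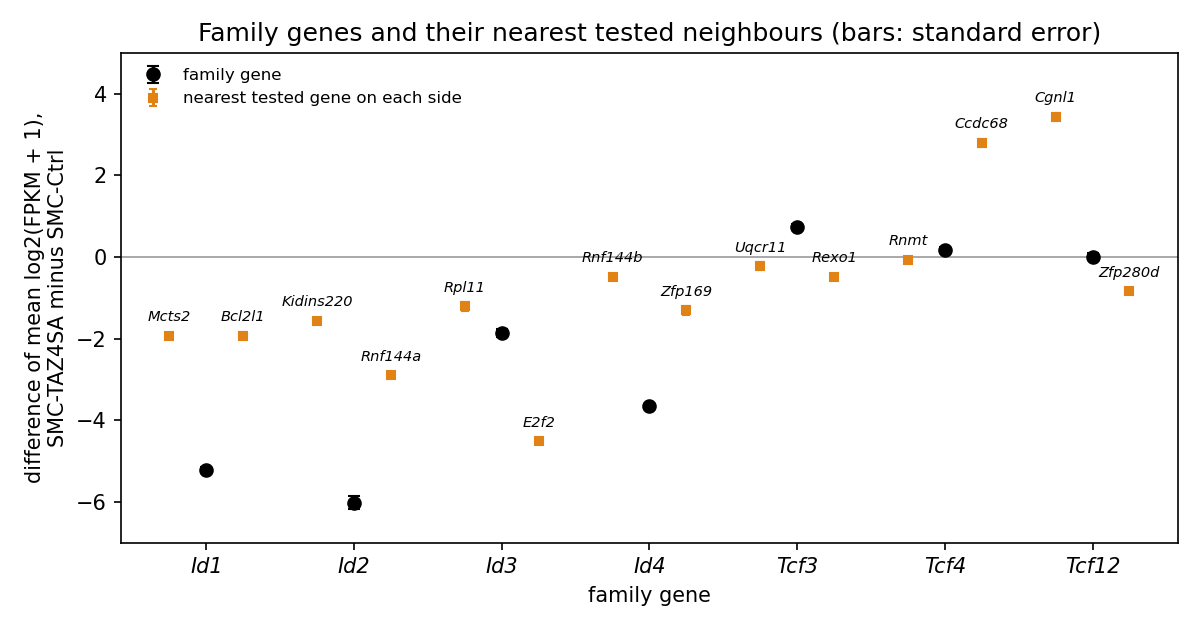
Difference of mean log2(FPKM + 1), SMC-TAZ4SA minus SMC-Ctrl, of each member (circles) and of the nearest tested gene on each side (squares, named), with standard errors. All squares beside the ID genes are below 0, from −4.51 (E2f2) to −0.49 (Rnf144b), while those beside the E protein genes lie on both sides of 0.

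Class II partners, the tissue-restricted factors that pair with E proteins, were led by mesenchymal factors in SMC-TAZ4SA and by neuroendocrine ones in SMC-Ctrl among the genes reported here. Of 45 listed genes 44 were in the table and 7 were tested, of which 4 were higher and 3 lower. Each of the 7 passed the filter of 1 FPKM through the libraries of a single group, so these counts support nothing, and the median difference of 0.88 (0.02 over all tested genes) is the value of Atoh8. Neurod1, a factor of neurons and endocrine cells, was at 0.0167 ± 0.00502 FPKM in SMC-TAZ4SA and 23.5 ± 1.27 FPKM in SMC-Ctrl (SD, n = 3 each), a difference of −4.59 (SE 0.06, adjusted p = 3.02e-10 by limma). Scx, a factor of tendon cells, rose to 21.8, 32.3 and 29.7 FPKM in SMC-TAZ4SA, against 0.0293, 0.108 and 0.211 FPKM in SMC-Ctrl. Twist2, a mesenchymal factor, was at 13.9, 15.2 and 16.9 FPKM in SMC-TAZ4SA and was listed at 0 in every SMC-Ctrl library. Twist1, its close relative, named after its values were seen, was at 10.9, 9.73 and 8.76 FPKM in SMC-TAZ4SA and listed at 0 in SMC-Ctrl, and Neurog3, a factor of endocrine precursors, was at 0.0200, 0 and 0 FPKM in SMC-TAZ4SA against 10.6, 11.4 and 11.2 FPKM in SMC-Ctrl. The other 37 genes stayed below the filter, none above 0.443 FPKM, and 14 of the list were listed at 0 throughout.

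Ligands and receptors of the BMP pathway, the known inducer of ID genes, came next. Of 17 genes 8 were tested, 3 higher, 4 lower and 1 that did not pass, where 40.7% of all tested genes were higher and 39.7% lower, with a median of 0.03 that ran from −0.10 to 0.25 when a library was left out (0.25 without SMC-TAZ4SA replicate 1). Bmp4, a ligand gene, rose to 19.2, 14.6 and 15.3 FPKM in SMC-TAZ4SA, against 0.294, 0.257 and 0.245 FPKM in SMC-Ctrl (difference 3.77, SE 0.10, adjusted p = 6.87e-09 by limma). Bmp7 fell to 0.0451 ± 0.0245 FPKM in SMC-TAZ4SA against 8.68 ± 0.404 FPKM in SMC-Ctrl (SD, n = 3 each). The type II receptor genes Acvr2a (−1.48) and Acvr2b (−2.42) fell. The tested type I receptor genes, named after their values were seen, went in opposite directions. Acvr1 rose by 1.03, to 29.0 ± 2.11 FPKM in SMC-TAZ4SA against 13.7 ± 0.874 FPKM in SMC-Ctrl (SD, n = 3 each). Bmpr1a fell slightly (−0.18, adjusted p = 0.0433 by limma). Bmpr2, the BMP type II receptor gene, did not pass, with 8.26, 19.9 and 21.5 FPKM in SMC-TAZ4SA against 14.4, 12.5 and 11.99 FPKM in SMC-Ctrl, and SMC-TAZ4SA replicate 1 was again the library that stood apart. Bmp4 and Bmp6 were below 1 FPKM in every SMC-Ctrl library and Bmp7 in every SMC-TAZ4SA library, so each could be called in a single direction.

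For SMADs and antagonists of the pathway, 17 of 20 listed genes were tested, 12 of them higher, 4 lower and 1 that did not pass (40.7% higher and 39.7% lower over all tested genes), with a median of 0.88 beside 0.02 over all tested genes. The secreted BMP antagonist gene Grem1 rose to 31.2, 35.9 and 37.1 FPKM in SMC-TAZ4SA, against 0.0892, 0.0164 and 0.0736 FPKM in SMC-Ctrl (difference 5.07, SE 0.08, adjusted p = 5.28e-10 by limma). Nog, which encodes the antagonist noggin, was at 10.8, 13.8 and 11.8 FPKM in SMC-TAZ4SA and listed at 0 in SMC-Ctrl. Fst, for the activin and BMP binding protein follistatin, was at 10.9 ± 1.97 FPKM in SMC-TAZ4SA (SD, n = 3) and listed at 0 in SMC-Ctrl. Fstl1 rose by 3.02. Of the 12 higher genes 5 were below 1 FPKM in every SMC-Ctrl library and could not have been called lower, which leaves 7 higher of 12 tested. The median of 0.88 includes these 5 genes, so its distance from 0.02 comes partly from the filter. Named after their values were seen, the inhibitory SMAD genes Smad7 (2.49) and Smad6 (0.50) rose. Of the receptor SMAD genes, named in the same way, Smad1 (0.28) rose while Smad5 (−0.18) and Smad9 (−2.17) fell. Smad5 lay near the threshold (adjusted p = 0.0467 by limma). With library totals made equal, 10 genes of the list were higher in place of 12. The small differences of Smad1 and Smad5 may therefore depend on the scaling. Rgma, a BMP co-receptor gene, did not pass (0.06). Its relative Rgmb (2.07), named after its values were seen, rose but could only be called higher. Bambi, of the same list and named in the same way, fell (−1.74).

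**Figure D5:**
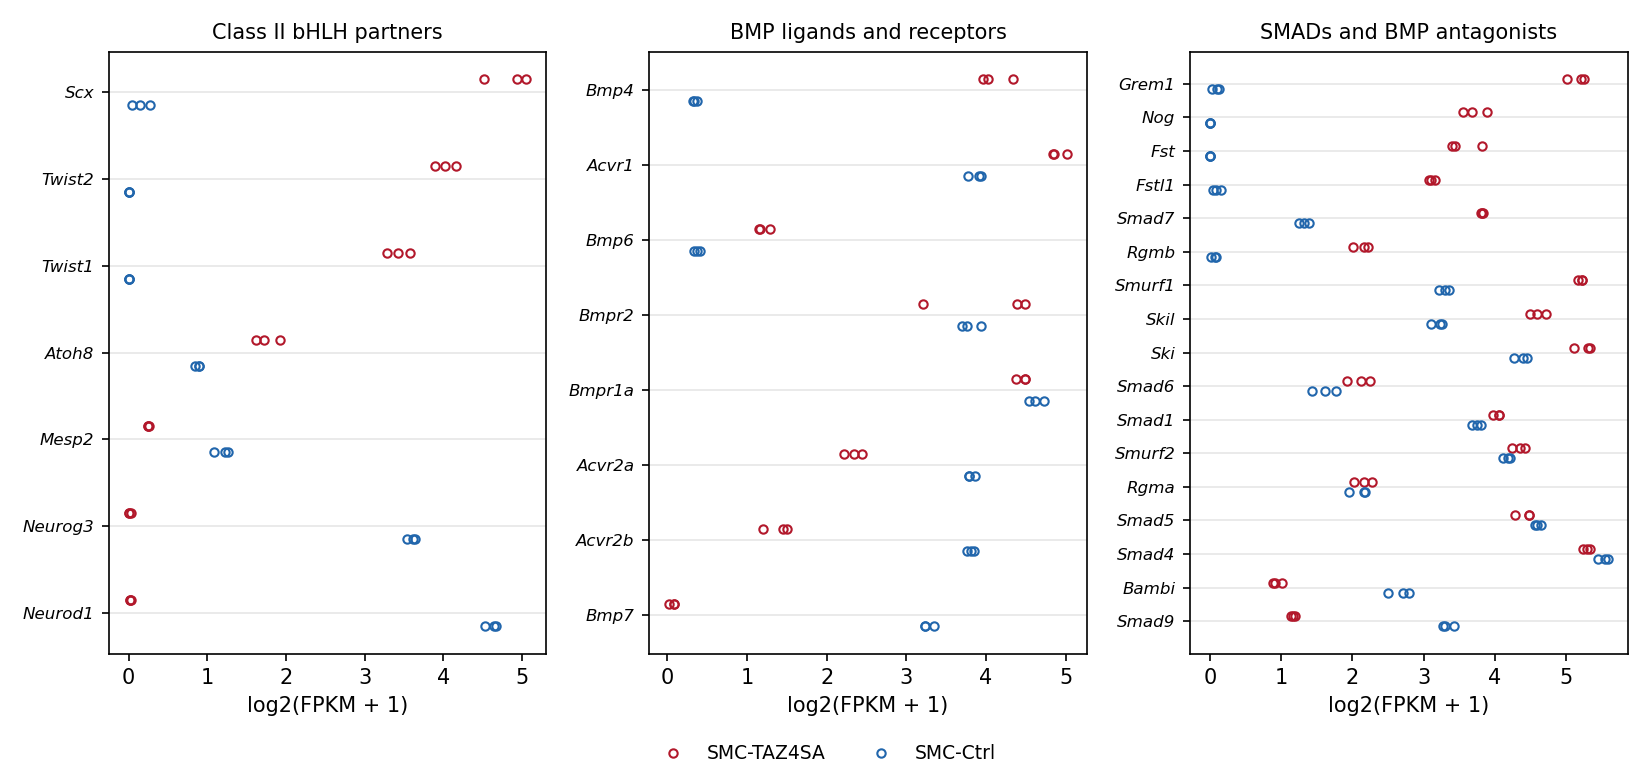
log2(FPKM + 1) of each library (circles) for the tested class II partners, BMP ligand and receptor genes, and SMAD and BMP antagonist genes, sorted by their difference between SMC-TAZ4SA and SMC-Ctrl. Neurod1 and Neurog3 are near 0 in SMC-TAZ4SA, Twist1, Twist2, Nog and Fst are at 0 in SMC-Ctrl, and the circles of Bmpr2 overlap.

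Of 11 genes for cofactors that E proteins recruit, 10 were tested, 2 higher, 6 lower and 2 that did not pass, beside 39.7% lower over all tested genes, with a median of −0.44. Lmo1 and Cbfa2t3 were below 1 FPKM in every SMC-TAZ4SA library and could only be called lower, and the median of −0.44 includes both. All 3 genes of the ETO corepressor family fell, namely Cbfa2t2 (−2.90), Runx1t1 (−2.89) and Cbfa2t3 (−2.28). Cbfa2t2 was the most abundant of them, at 9.08 ± 0.616 FPKM in SMC-TAZ4SA and 74.0 ± 1.53 FPKM in SMC-Ctrl (SD, n = 3 each). Lmo1, for a LIM-only bridging protein, fell to 0.406 ± 0.259 FPKM in SMC-TAZ4SA against 26.7 ± 1.41 FPKM in SMC-Ctrl (SD, n = 3 each). The 2 higher genes, named after their values were seen, were Lmo4 (1.10), a relative of Lmo1, and Kat2a (0.77). Lmo4 was at 136 ± 13.6 FPKM in SMC-TAZ4SA and 62.8 ± 1.46 FPKM in SMC-Ctrl (SD, n = 3 each). The acetyltransferase genes Crebbp (−0.37) and Kat2b (−0.12) did not pass.

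Genes of ID turnover and of other proteins that IDs bind showed 3 higher, 4 lower and 3 that did not pass, all 10 being tested (40.7% higher and 39.7% lower over all tested genes), with a median of −0.16. Usp1, whose product removes ubiquitin from ID proteins, was at 50.7 ± 4.10 FPKM in SMC-TAZ4SA and 52.5 ± 1.10 FPKM in SMC-Ctrl (SD, n = 3 each) and did not pass (−0.05). Its cofactor gene Wdr48 fell by 0.68. Elk3, for an ETS factor, rose to 31.6 ± 0.561 FPKM in SMC-TAZ4SA against 1.14 ± 0.0819 FPKM in SMC-Ctrl (SD, n = 3 each), and its relative Elk1 did not pass (−0.15). Of the pocket protein genes, Rb1, deleted in the model, fell (−2.26), as did Rbl2 (−0.86), whereas Rbl1, named after its values were seen, rose (0.59). Rb1 was below 1 FPKM in every SMC-TAZ4SA library and could only be called lower.

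Of 8 genes known from other systems to respond to E proteins or IDs, 4 were higher and 4 lower, close to the shares over all tested genes (40.7% and 39.7%), with a median of 0.23. Cdkn2b and Gfi1 passed the filter through a single group each and could be called in 1 direction only. Thbs1, for a secreted matrix protein that ID1 represses in other cells, rose by 8.20, to 741 ± 83.1 FPKM in SMC-TAZ4SA against 1.51 ± 0.0264 FPKM in SMC-Ctrl (SD, n = 3 each). Cyclin-dependent kinase inhibitor genes, which E proteins activate in other cells, did not move together. Cdkn2b, for p15, rose by 3.63 to 20.9 ± 3.65 FPKM in SMC-TAZ4SA against 0.751 ± 0.113 FPKM in SMC-Ctrl, and Cdkn1c, for p57, fell by 3.43 to 1.84 ± 0.142 FPKM in SMC-TAZ4SA against 29.6 ± 0.807 FPKM in SMC-Ctrl (SD, n = 3 each). Gfi1, for a zinc finger repressor, fell by 3.28. Cdkn1a, for p21, named after its values were seen, fell by 3.13 to 12.3 ± 1.09 FPKM in SMC-TAZ4SA against 115 ± 4.18 FPKM in SMC-Ctrl (SD, n = 3 each).

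ID genes respond quickly to serum, so immediate early genes were followed with them. All 10 were tested, with 4 higher, 6 lower (40.7% and 39.7% of all tested genes) and a median of −0.35. Fos fell to 2.09 ± 0.438 FPKM in SMC-TAZ4SA against 25.4 ± 8.35 FPKM in SMC-Ctrl, and Egr1 to 41.4 ± 3.41 FPKM in SMC-TAZ4SA against 128 ± 45.4 FPKM in SMC-Ctrl (SD, n = 3 each), with an uneven SMC-Ctrl group for both. Egr2 (1.57) and Atf3 (1.41) rose. Of the 4 higher genes 2, Egr2 among them, were below 1 FPKM in every SMC-Ctrl library and could only be called higher. The part of serum or handling in the ID values was not tested. The coefficient of variation of the 4 ID genes was between 2.92% and 6.29% in SMC-Ctrl, and between 5.00% (Id3) and 34.6% (Id2) in SMC-TAZ4SA. Spread within a group does not bear on handling that differed between the groups.

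The profiles most like each member were taken as the tested genes at the smallest Euclidean distance over the 6 libraries, after each profile of log2(FPKM + 1) was centred on its own mean. For Id1 these were Stmn3 (distance 0.06) and Syt5 (0.11), for Id2 Calca (0.32) and Chga (0.39), for Id3 Tpx2 (0.09) and Rab3d (0.09), and for Id4 Sema5b (0.10) and D430019H16Rik (0.10). Stmn3 and Syt5, which encode a stathmin and a synaptotagmin, were at 0.179 and 0.0804 FPKM in SMC-TAZ4SA, against 42.0 and 36.8 FPKM in SMC-Ctrl, far below Id1 in both groups. For the E proteins they were Fam207a (0.05) and Ppp1r9b (0.08) for Tcf3, Trak2 (0.03) and Phf3 (0.04) for Tcf4, and Prpf8 (0.04) and Nat14 (0.06) for Tcf12. With 6 libraries in 2 groups, such a distance mostly reflects the size of the group difference.

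The libraries and labels were checked as a whole. The FPKM values summed to 324938 to 361800 in SMC-TAZ4SA and to 284422 to 297034 in SMC-Ctrl, and depth relative to SMC-Ctrl replicate 1 was 0.713 to 0.965 in SMC-TAZ4SA and 0.968 to 1.09 in SMC-Ctrl. Pearson's r across tested genes, which are not independent replicates, was at least 0.990 within the groups and at most 0.664 between them. Wwtr1, the gene of TAZ, was at 34.5 ± 2.41 FPKM in SMC-TAZ4SA and 0.143 ± 0.0329 FPKM in SMC-Ctrl (SD, n = 3 each), and Cd44, which SMC were sorted to lack, was at 76.4 FPKM in SMC-TAZ4SA and 0.257 FPKM in SMC-Ctrl. All 6 genes chosen as checks of the labels were higher, Ncam1 included, but 4 of them were below 1 FPKM in every SMC-Ctrl library and could only be called higher. Of 9 neuroendocrine SCLC markers 8 were tested, 7 lower and 1 higher, and 4 of the lower genes could only be called lower. The higher gene was Ncam1, the marker SMC were sorted to carry, at 78.5 ± 4.97 FPKM in SMC-TAZ4SA and 21.4 ± 1.18 FPKM in SMC-Ctrl (SD, n = 3 each), opposite in direction to the other neuroendocrine markers tested. By western blot the study found less NCAM protein and more CD44 protein in SMC with TAZ-4SA. The Ncam1 RNA values here thus ran opposite to the NCAM protein result of the study, and the reason was not tested. Dll3 was below the filter in both groups. Fibroblast markers moved with the ID genes in the opposite direction, in that all 6 tested of 10 were higher and their sum was 359 to 407 FPKM in SMC-TAZ4SA and 1.76 to 2.12 FPKM in SMC-Ctrl, but 5 of the 6 were below 1 FPKM in every SMC-Ctrl library and could only be called higher, and Dcn, Lum and Fap averaged no more than 0.0412 FPKM in SMC-TAZ4SA. Smooth muscle markers summed to 830 to 1014 FPKM in SMC-TAZ4SA and 5.79 to 6.62 FPKM in SMC-Ctrl, with 4 of 7 tested and higher (3 of which could only be called higher) and Myh11 at 0.0120 FPKM in SMC-TAZ4SA. Endothelial markers, of a cell type rich in Id1 and Id3, summed to 2.36 to 2.74 FPKM in SMC-TAZ4SA and 30.0 to 34.4 FPKM in SMC-Ctrl. The sum was mostly Kdr in SMC-TAZ4SA (2.14 FPKM, against 0.468 FPKM in SMC-Ctrl) and nearly all Vwf in SMC-Ctrl (0.0176 FPKM in SMC-TAZ4SA, against 31.0 FPKM in SMC-Ctrl), while Cdh5, Cldn5 and Emcn were listed at 0 in SMC-Ctrl. Leukocyte markers summed to 5.09 to 5.96 FPKM in SMC-TAZ4SA and 1.03 to 1.36 FPKM in SMC-Ctrl, with 1 of 3 tested not passing and 2 higher, which could only be called higher, and Ptprc averaged 0.0315 FPKM in SMC-TAZ4SA. Lung epithelial markers gave 2 higher and 2 lower among 5 tested of 8, and 1 of the lower genes, Scgb1a1, listed at 0 in SMC-TAZ4SA, could only be called lower. Lung epithelial sums were 113 to 133 FPKM in SMC-TAZ4SA and 332 to 378 FPKM in SMC-Ctrl, mostly Epcam. Over all tested genes, to be set beside these marker counts, limma called 40.7% higher and 39.7% lower. The part of these markers in the levels of the ID and E protein genes was not tested.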

How the data were processed

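RNA-seq of 3 SMC-TAZ4SA and 3 SMC-Ctrl libraries was analysed from the table of FPKM values that the authors deposited, with a column for each library. The authors isolated total RNA with TRIzol and mapped NovaSeq read pairs to mm10 with STAR (2.6 in the submitters' processing notes). For the FPKM tool, its annotation and the use of strand, the entry is: not given in the sources used here. FPKM keeps no read number, so depth is known only relative to another library, from the steps between low values.

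The table held 23847 lines and 23361 symbols, and 254 symbols on several lines were left out of the tests. Tests covered genes with 1 FPKM or more in no fewer than 3 libraries. Groups were compared on log2(FPKM + 1) with limma 3.58.1 (R 4.3.3), using a mean-variance trend and 2-sided p-values, adjusted by Benjamini-Hochberg over 12141 genes (threshold 0.05). Differences on this scale understate the change of low genes. The fit was tested on simulated data.

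The members and the gene lists were chosen with earlier results of these data known. The genes named were the 7 members, the 4 called genes with the largest difference and up to 2 uncalled genes of each list, and the 2 profiles nearest to each member. A listed gene is not reported here. Gene positions came from GENCODE M21 (GRCm38, the assembly of mm10) and promoter windows from RefSeq. Alternatives covered the pseudocount, filter, scaling, trend, replicate block and leaving out each library.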

Additional observations from a re-analysis of the deposited data

How the results depend on the processing

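The 4 ID genes were lower in SMC-TAZ4SA, past the threshold of limma, under each of the 16 alternatives (64 of 64 values), and Tcf3 was higher under each of them. Of the 112 values of the 7 members, 111 kept their call, and the exception was Tcf4, which passed without SMC-TAZ4SA replicate 1 (a difference of 0.25). The family was chosen with this comparison in view. These counts therefore describe only how far the calls depend on the processing, and are no test of the family. The difference of Id2 ran from −6.64 with a pseudocount of 0.01 to −5.86 without SMC-TAZ4SA replicate 2, and that of Id4 from −4.31 with a pseudocount of 0.01 to −3.63. Scaling each library to the same total moved the median of all tested genes to −0.18 from 0.02, and the share of called genes that were higher to 40.4% from 50.6%. On the log2 scale it moved the summed ID level to −2.52 and the summed E protein level to 0.14, and scaling to the same upper quartile moved the summed ID level to −2.39, where the deposited values gave −2.31 and 0.35. Leaving out each library in turn gave −2.35 to −2.27 for the ID sum and 0.31 to 0.40 for the E protein sum. Without a filter, more low genes were tested, and the counts became 6 higher and 7 lower for BMP ligands and receptors and 9 lower for class II partners. Of 224 list counts, 221 stayed within 1.5 times. Between 9111 and 10150 genes were called when a library was left out. Replicate numbers did not pair the libraries: the deviations of same-numbered libraries correlated at −0.25, −0.06 and −0.31, no library correlated best with its own number, and with the replicate block 9350 genes were called in place of 9754.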

Other observations

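The TCF and LEF factors of WNT signalling, whose older names are close to those of the E proteins, are separate genes in the table, and 4 of 4 were tested. Tcf7l2, which was once called Tcf4, was at 6.61, 7.12 and 6.79 FPKM in SMC-TAZ4SA, against 0.0189, 0 and 0 FPKM in SMC-Ctrl. Tcf7 was at 3.86 ± 0.203 FPKM in SMC-TAZ4SA and 0.710 ± 0.156 FPKM in SMC-Ctrl (SD, n = 3 each). Both were below 1 FPKM in every SMC-Ctrl library, so limma could call them only higher, as it did. Tcf7l1, once called Tcf3, fell by 0.56. Lef1 was at 1.66 ± 0.219 FPKM in SMC-TAZ4SA and 1.67 ± 0.0672 FPKM in SMC-Ctrl and did not pass.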
